A study of Mus musculus with 2 samples.

Results

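The 9 microRNA genes described here form 3 clusters in the mouse genome, each with a gene of the miR-99/100 family, a let-7 gene and a miR-125 gene in that order. They were chosen by their GENCODE M21 symbols and matched by Ensembl gene identifier, and all 9 were found among the 2202 genes of the count tables. The cluster on chromosome 16 holds Mir99a, Mirlet7c-1 and Mir125b-2, the cluster on chromosome 9 holds Mir100, Mirlet7a-2 and Mir125b-1, and the cluster on chromosome 17 holds Mir99b, Mirlet7e and Mir125a. Small RNA was sequenced from gastrocnemius, a muscle of the lower hindlimb. The tissue was male, aged 2 months and of the mouse strain B6CASTF1/J, a first-generation hybrid of C57BL/6J and CAST/EiJ. The series is 1 group of 2 libraries, which the labels number as biological replicates 2 and 1. No treatment or second group was included, so the data give the level of each gene and how far the libraries differed. The labels give each library its own tissue sample but the same donor entry. Whether the libraries came from separate mice is therefore not certain, and the spread between them may be partly technical.

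MicroRNAs guide the silencing complex to messenger RNAs, mostly by pairing of the seed, bases 2 to 8 from the 5′ end. The let-7 family and lin-4, the worm relative of miR-125, were found as timing genes of Caenorhabditis elegans, and in mammals let-7 represses Lin28a, Hmga2 and Ras genes and accumulates as cells differentiate. The miR-125 family represses Lin28a as well, and in mouse myoblasts miR-125b targets Igf2. The miR-99/100 family targets Mtor and Igf1r, which act in growth signalling.

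The mature 5′ arms show which members can be told apart by sequence, with the seed in capitals (RefSeq, GRCm38.p6). A mature entry was found for all 9 genes, but for Mirlet7a-2 it was the 3′ arm only.
miR-99a-5p: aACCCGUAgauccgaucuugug
miR-100-5p: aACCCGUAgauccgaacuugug
miR-99b-5p: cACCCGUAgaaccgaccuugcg
let-7c-5p: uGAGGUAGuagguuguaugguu
let-7e-5p: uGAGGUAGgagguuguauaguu
miR-125b-5p: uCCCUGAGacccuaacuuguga
miR-125a-5p: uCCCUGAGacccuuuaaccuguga
Counting from 1 at the 5′ end, miR-99a-5p and miR-100-5p differ by 1 base, U16A. The arm of miR-99b differs from miR-99a-5p by 4 bases, A1C, U11A, U16C and U21C. Between let-7c-5p and let-7e-5p there are 2 differences, U9G and G19A. The first 13 bases of miR-125b-5p and miR-125a-5p are identical.

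Of these arms, let-7c-5p lies in both Mirlet7c-1 and Mirlet7c-2 of chromosome 15, and miR-125b-5p lies in both Mir125b-1 and Mir125b-2. The RefSeq mature entry for Mirlet7a-2 holds only its 3′ arm, but its hairpin also contains let-7a-5p, which carries the let-7 seed. The arm let-7a-5p differs from let-7c-5p by 1 base, G19A. Across whole hairpins, Mirlet7a-2 shares 23 identical bases with Mirlet7a-1 of chromosome 13 and 21 with Mirlet7c-1. Mirlet7c-1 shares 23 bases with Mirlet7c-2, and Mir125b-1 and Mir125b-2 share 24. These 4 genes have such stretches of 20 bases or more in another microRNA gene of the tables, and the other 5 (Mir99a, Mir100, Mir99b, Mirlet7e and Mir125a) have none. A read that matched several places was not assigned to a gene, and such reads were 74.4% of all reads in replicate 2 and 75.2% in replicate 1. The counts of Mirlet7c-1, Mirlet7a-2, Mir125b-1 and Mir125b-2 therefore leave out reads that lie within the shared stretch, and are uncertain as measures of the microRNA. The 3′ arms of these 4 genes occur in no other gene of the tables and are shown with bases 2 to 8 in capitals.
let-7c-1-3p: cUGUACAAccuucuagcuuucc
let-7a-2-3p: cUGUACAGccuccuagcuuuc
miR-125b-1-3p: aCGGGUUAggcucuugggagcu
miR-125b-2-3p: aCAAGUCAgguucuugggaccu
From miR-125b-1-3p to miR-125b-2-3p there are 5 differences, G3A, G4A, U7C, C11U and G20C. Thus the arms that separate these paralogs are the 3′ arms, while their 5′ arms are the same.

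The libraries differed in depth. Replicate 2 held 2272132 counts on microRNA genes and replicate 1 held 638779, and levels are given as counts per 1000000 of these (CPM), with exact 95% Clopper-Pearson intervals that cover counting error only. Levels were not divided by gene length, since inserts were under 30 nt and the hairpins are 65 to 96 nt. The skeletal muscle markers, 9 microRNA genes led by Mir206, had summed levels of 52158 and 22884 CPM in replicates 2 and 1, all 9 counted in both. In replicates 2 and 1, the sums were 129798 and 81286 CPM for the endothelial pair and 81451 and 123068 CPM for the smooth muscle pair. The endothelial sum was nearly all Mir126a, as Mir126b had 1 count in replicate 2 and 0 in replicate 1. For the fibroblast list the sums were 11795 and 19699 CPM, with Mir199a-1 at 0 in both. Erythroid markers summed to 4688 and 6176 CPM, leukocyte markers to 2889 and 2542 CPM, and the liver marker Mir122 had 29.9 and 15.7 CPM. Of 3 neural genes matched, Mir9-2 and Mir9-3 were at 0 in both libraries and Mir9-1 had 1 count in replicate 2.

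Together the 9 genes gave 5.92% of gene counts in replicate 2 (95% interval 5.89 to 5.95%) and 4.49% in replicate 1 (4.44 to 4.54%), a mean of 5.21% ± 1.01 (SD, n = 2). All 9 ranked within the top 143 of 2202 genes by mean CPM. For comparison, 549 genes had a count in either library, with a median of 6.99 CPM. The 3 miR-99/100 genes carried most of this, with 5.51% of gene counts in replicate 2 and 4.08% in replicate 1. The 3 miR-125 genes gave 0.228% in replicate 2 and 0.230% in replicate 1, and the 3 let-7 genes 0.181% and 0.178%.

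**Figure D1:**
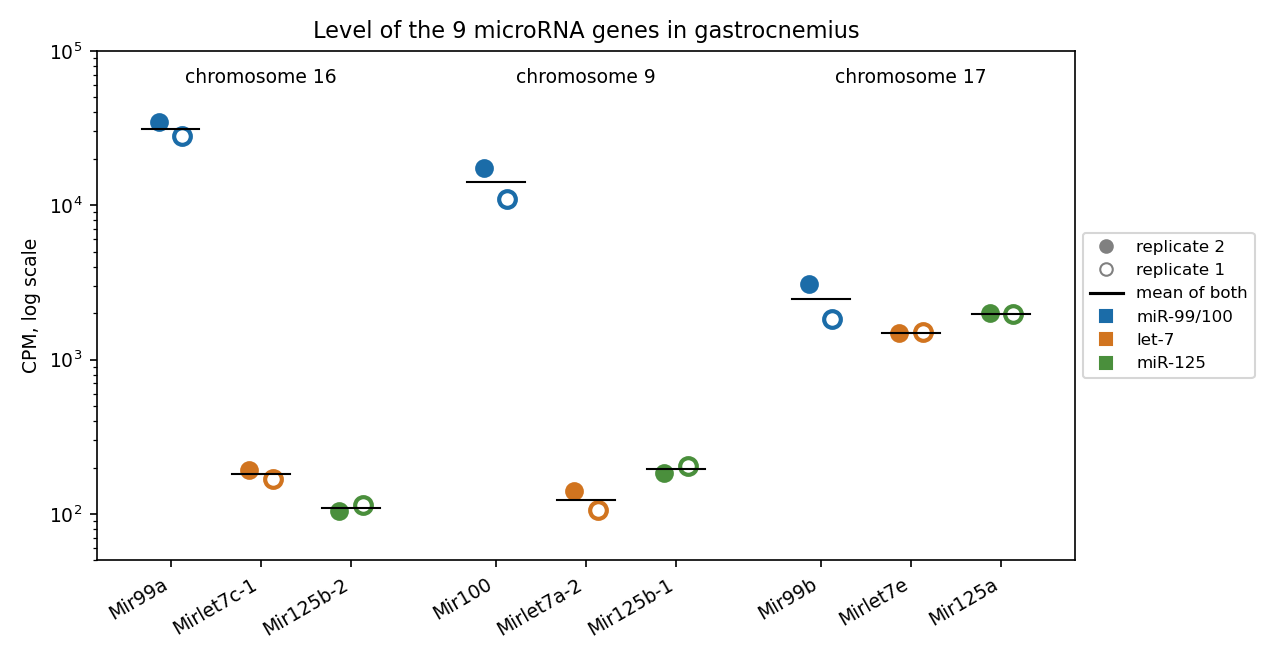
Level of each of the 9 genes in CPM (log axis), by cluster, with replicate 2 as filled points, replicate 1 as open points and a line at their mean. The first gene of each cluster, of the miR-99/100 family, is the highest of its cluster by mean, from 31319 CPM for Mir99a to 2463 CPM for Mir99b.

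Among the miR-99/100 genes, Mir99a (ENSMUSG00000065530.1), at chr16:77598936-77599000, had 34625 CPM in replicate 2 and 28013 CPM in replicate 1. Its mean of 31319 ± 4676 CPM (SD, n = 2) was the highest of the 9. Its hairpin is printed with both mature arms in capitals, as the member with the most counts.
Mir99a hairpin: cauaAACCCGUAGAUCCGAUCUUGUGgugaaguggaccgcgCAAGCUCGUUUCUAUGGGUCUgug
Mir100 (ENSMUSG00000093011.1), at chr9:41531425-41531504, had 17432 CPM in replicate 2 and 10993 CPM in replicate 1. Its arm differs from that of Mir99a by the single base given above, and how a read with a mismatch there was placed was not analysed here.
Mir100 hairpin: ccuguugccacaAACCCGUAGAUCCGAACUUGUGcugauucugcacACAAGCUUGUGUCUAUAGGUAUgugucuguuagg
Mir99b (ENSMUSG00000065396.1), at chr17:17830188-17830257, had 3081 CPM in replicate 2 and 1844 CPM in replicate 1. The libraries of the 3 genes did not overlap, so the order Mir99a, Mir100, Mir99b was the same in both. No further gene of the tables carries this seed among the RefSeq mature sequences, so these 3 held all of its assigned counts.

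Among the let-7 genes, Mirlet7e (ENSMUSG00000105758.1), at chr17:17830352-17830444, had 1479 CPM in replicate 2 and 1509 CPM in replicate 1. Mirlet7c-1 (ENSMUSG00000065557.3), at chr16:77599657-77599750, had 191 CPM (95% interval 174 to 210) in replicate 2 and 169 CPM (139 to 204) in replicate 1. Mirlet7a-2 (ENSMUSG00000092770.1), at chr9:41536716-41536811, had 140 CPM (125 to 157) in replicate 2 and 106 CPM (82.7 to 135) in replicate 1. The gene with no shared stretch, Mirlet7e, thus gave 81.7% of the counts of the 3 in replicate 2 and 84.6% in replicate 1. Since reads of let-7c-5p and of the stretch shared with Mirlet7a-1 are missing, this share is no measure of the let-7 microRNAs made from the clusters.

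Among the miR-125 genes, Mir125a (ENSMUSG00000065479.2), at chr17:17830812-17830879, had 1990 CPM in replicate 2 and 1982 CPM in replicate 1, the closest pair of values of the 9. Mir125b-1 (ENSMUSG00000093354.1), at chr9:41581926-41582002, had 184 CPM (167 to 203) in replicate 2 and 205 CPM (171 to 243) in replicate 1. Mir125b-2 (ENSMUSG00000065472.1), at chr16:77646273-77646343, had 104 CPM (91.0 to 118) in replicate 2 and 114 CPM (89.6 to 144) in replicate 1. Both miR-125b genes lay far under Mir125a, and both lack the reads of their common 5′ arm. With 419 and 131 counts for Mir125b-1 and 236 and 73 for Mir125b-2, in replicates 2 and 1, their intervals are wide.

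In the order of mean CPM, Mir99a was followed by Mir100 (14212), Mir99b (2463), Mir125a (1986), Mirlet7e (1494), Mir125b-1 (195), Mirlet7c-1 (180), Mirlet7a-2 (123) and Mir125b-2 (109). The libraries overlapped between 3 neighbouring pairs, Mir99b and Mir125a, Mir125b-1 and Mirlet7c-1, and Mirlet7a-2 and Mir125b-2, whose order is not fixed. The widest step was between Mirlet7e and Mir125b-1, 7.67-fold in mean CPM. It lies between the 5 genes with no shared stretch, at 1494 to 31319 CPM, and the 4 genes whose shared reads are left out, at 109 to 195 CPM. Those 4 genes gave 1.05% of the counts of the 9 in replicate 2 and 1.32% in replicate 1. What part the unassigned reads have in this step was not tested.

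The genes nearest in level were taken as the ones next above and next below each member by mean CPM, since 2 libraries give no pattern to compare. Mir99a lay between Mir206 (34201 ± 19625 CPM), a microRNA of skeletal muscle, and Mir22 (29380 ± 3072 CPM). Mir100 lay between Mir21a (14986 ± 5779 CPM) and Mir30d (13768 ± 1977 CPM). Mir99b had Mir335 and Mir145a as neighbours, Mir125a had Mir361 and Mir379, and Mirlet7e had Mir93 and Mir15a. Among the low members, Mir125b-1 lay between Mir15b and Mir374b, Mirlet7c-1 between Mirlet7a-1 and Mir190a, Mirlet7a-2 between Mirlet7f-1 and Mir18, and Mir125b-2 between Mir539 and Snord43.

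The 3 clusters keep the same order of families and differ in spacing. On chromosome 16, Mirlet7c-1 starts 656 bases after the end of Mir99a, and Mir125b-2 lies a further 46522 bases away. On chromosome 9 the gaps are 5211 and 45114 bases. The cluster on chromosome 17 is compact, with gaps of 94 and 367 bases and a whole span of 692 bases, against 47408 on chromosome 16 and 50578 on chromosome 9. All 9 genes lie on the plus strand. In GENCODE M21 the genes of chromosome 16 lie in introns of the noncoding gene Mir99ahg on the same strand. The genes of chromosome 9 lie in introns of the noncoding gene 3110039I08Rik, listed by RefSeq as a synonym of Mir100hg. Those of chromosome 17 lie within Spaca6, a gene for a sperm protein needed for fertilization, with 47 bases of Mir125a inside an annotated exon and the other two in introns. Other annotated genes overlap the members too. On chromosome 16, Gm11146 spans Mir99a and Mirlet7c-1 on the opposite strand with both in its intron, and the exon of C130023A14Rik covers the last 4 bases of Mir125b-2 on the same strand. On chromosome 9, all 3 members lie in introns of the long noncoding gene Gm49317, Mir100 lies wholly in an exon of Gm48742 on the opposite strand, and Mir125b-1 lies wholly in an exon of Gm28119 on the same strand. These genes are not among those counted, so no level is given for them.

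**Figure D2:**
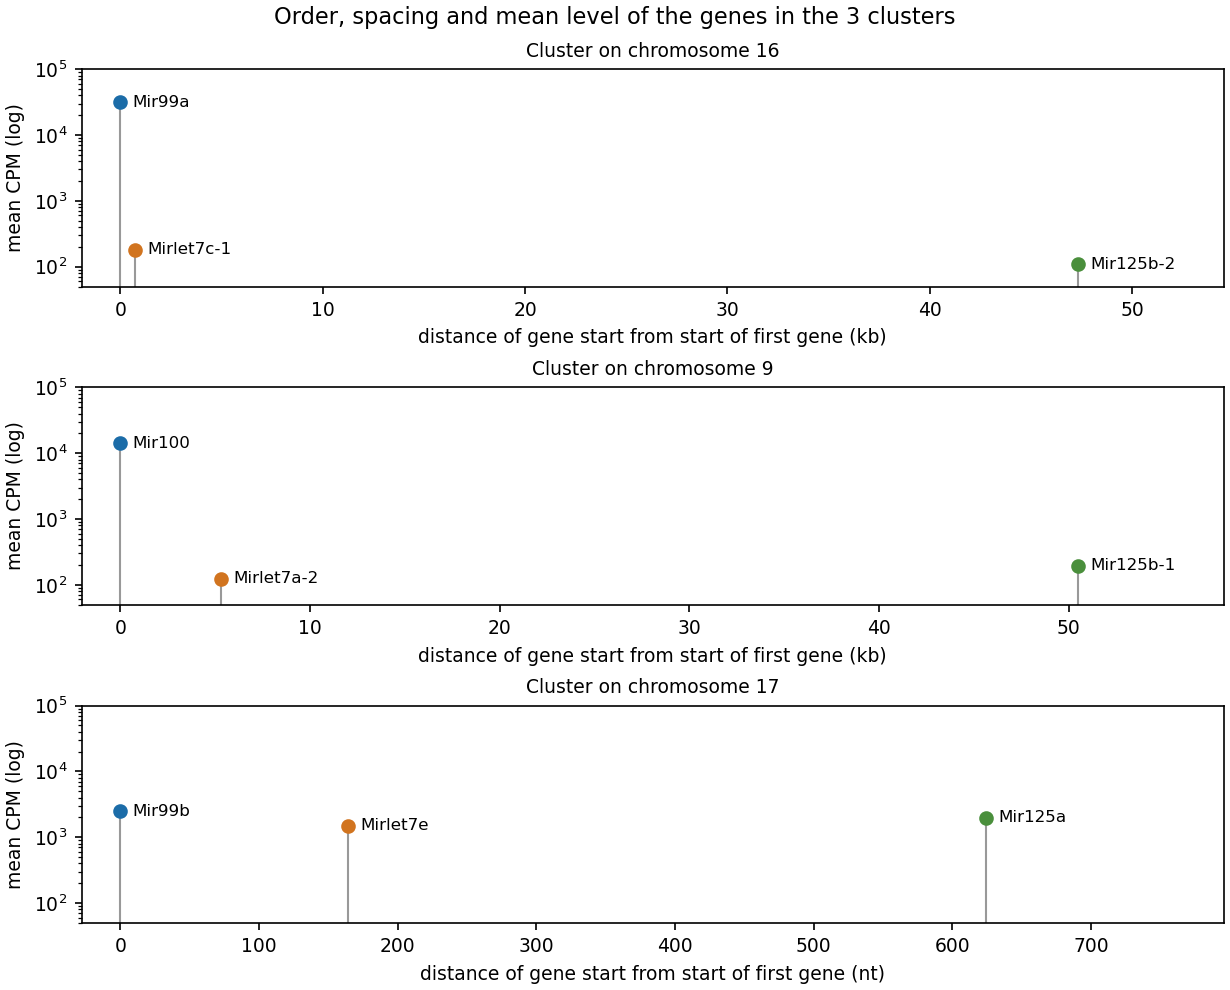
Start of each gene relative to the start of the first gene of its cluster (kb for chromosomes 16 and 9, nt for chromosome 17) against its mean CPM (log axis), with thin lines dropped to the axis as guides. The miR-125 gene lies over 45 kb from its neighbour on chromosomes 16 and 9 and within the 692 nt span of the cluster on chromosome 17.

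Within the clusters, the miR-99/100 gene held most of the assigned counts on chromosomes 16 and 9 but not on chromosome 17. Mir99a gave 99.2% of the counts of its cluster in replicate 2 (95% interval 99.1 to 99.2%) and 99.0% in replicate 1 (98.8 to 99.1%). Mir100 gave 98.2% in replicate 2 (98.0 to 98.3%) and 97.2% in replicate 1 (96.8 to 97.6%). Each of these clusters holds members that lack their shared reads, so both shares are uncertain. On chromosome 17, no member shares a stretch of 20 bases with another of the 2202 genes, though matches elsewhere in the genome were not searched. There Mir99b gave 47.0% in replicate 2 (46.2 to 47.8%) and 34.6% in replicate 1 (33.0 to 36.2%). Mir125a gave 30.4% in replicate 2 and 37.1% in replicate 1, and Mirlet7e 22.6% and 28.3%. The share of Mir99b thus differed between the libraries by more than counting error. In replicate 1 the intervals of Mir125a (35.5 to 38.8%) and Mir99b overlapped, so which of them led there is within counting error.

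Strand mattered for 1 member. All 9 had 0 counts on the opposite strand in both libraries, for which the limit of 3 counts is 1.32 CPM in replicate 2 and 4.70 in replicate 1. For 8 of the 9 the unstranded and same-strand counts were identical. Mirlet7e, which overlaps the annotated microRNA gene Gm25927 on the other strand over its full length, had 3361 counts in replicate 2 and 964 in replicate 1 on its own strand and is listed at 0 when strand is ignored. Gm25927 itself had 0 counts on its own strand in both libraries.

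Between the libraries, the 3 miR-99/100 genes were higher in replicate 2 and the let-7 and miR-125 genes of the same clusters did not pass the test. A two-sided binomial test, exact and conditional on each gene's total, was adjusted by Benjamini-Hochberg over 311 genes and set these 2 libraries against counting error, not mice or conditions. Mir100 was 1.59-fold higher in replicate 2 (95% interval of counting error 1.55 to 1.63, adjusted p = 2.30e-306). Mir99b was 1.67-fold higher (1.57 to 1.78, adjusted p = 1.00e-65), and Mir99a 1.24-fold higher (1.22 to 1.26, adjusted p = 4.45e-149). The direction of all 3 was kept with DESeq2's size factors and with TMM scaling, where the log2 ratios were 0.22 for Mir99a, 0.58 for Mir100 and 0.66 for Mir99b.

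The other 6 members did not pass. The ratio of replicate 2 over replicate 1 was 1.00 for Mir125a (0.943 to 1.07) and 0.980 for Mirlet7e (0.912 to 1.05). Intervals were wider for Mirlet7a-2 (1.32, 1.01 to 1.74, adjusted p = 0.0858), Mirlet7c-1 (1.13, 0.915 to 1.41), Mir125b-1 (0.899, 0.737 to 1.10) and Mir125b-2 (0.909, 0.696 to 1.20). Of all 311 genes tested, 126 passed, or 40.5%, with 23.2% higher in replicate 2 and 17.4% lower, so 3 of 9 members is near the background. With TMM scaling 55 were higher and 69 lower, in place of 72 and 54. Among the 59 genes with a mean of 1000 CPM or more, 81.4% passed, and the members in that class were the 3 that passed together with Mir125a and Mirlet7e. The median log2 ratio was 0.17 over the members and 0.04 over all tested genes. In the exact test of edgeR at a common dispersion, the spread between the libraries was counted as noise. That dispersion was estimated from these same 2 libraries as 1 group. By this test 0 of the 9 members passed and 0 had an unadjusted p under 0.05, the lowest being 0.196. Of all 311 genes, only 2 passed and 20 had an unadjusted p under 0.05, so the result does not set the members apart. Markers of cell types moved as well. Of the lists with more than 1 counted gene, only smooth muscle and erythroid moved in 1 direction throughout, and each holds 2 genes. Whether the 2 genes of such a list vary independently was not tested. In replicate 2 over replicate 1, Mir143 was at 0.661-fold and Mir145a at 0.718 (smooth muscle). Likewise Mir451a was at 0.752 and Mir144 at 0.812 (erythroid). The skeletal muscle, fibroblast and leukocyte lists were mixed, the last from 0.732 for Mir142 to 1.23 for Mir155. The summed level in replicate 2 over replicate 1 was 2.28-fold for the skeletal muscle list and 1.60 for the endothelial list. That endothelial value is in effect the ratio of Mir126a. The summed ratio was 0.662 for the smooth muscle, 0.599 for the fibroblast, 0.759 for the erythroid and 1.14 for the leukocyte list. Other sums too came mostly from 1 gene. In replicate 2, Mir206 had 48078 of the 52158 CPM of the skeletal muscle list. Mir143 had 79407 of the 81451 CPM for smooth muscle, and Mir21a 10900 of the 11795 CPM for fibroblasts. In the skeletal muscle list Mir206 was at 2.37-fold, Mir499 at 2.32, Mir208b at 1.45, Mir486 at 1.27 and Mir1a-2 at 1.03. The other 4 (Mir1a-1, Mir133a-1, Mir133a-2 and Mir133b) were at 0.515 to 0.787 with intervals that include 1. Those 4 had only 6 to 28 counts a library, and reads they may share with other genes were not analysed here. In the fibroblast list Mir21a was at 0.571-fold and Mir199b at 0.514, but Mir214 at 1.48 and Mir199a-2 at 3.09. The part of the mix of cells in these differences was not tested.

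**Figure D3:**
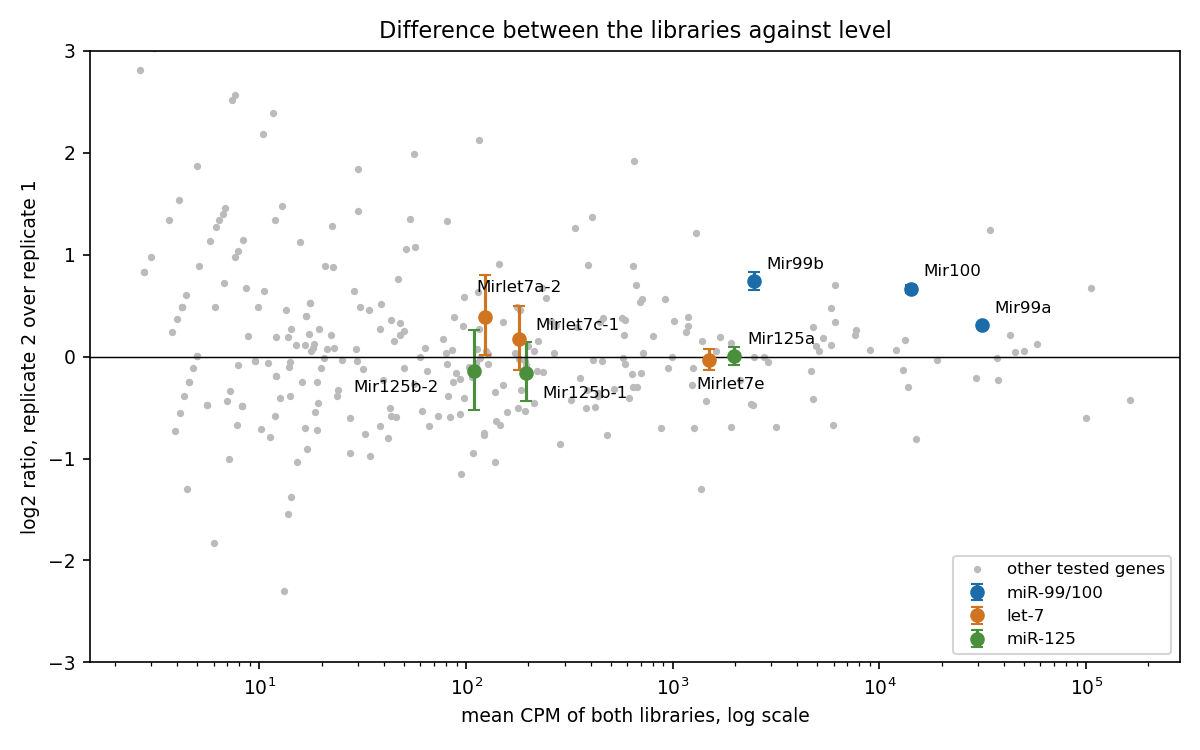
Log2 ratio of replicate 2 over replicate 1 against the mean CPM of both libraries (log axis) for 311 tested genes, with the 9 members in colour and bars for the 95% interval of counting error; 7 genes lie outside the plotted range of 3. Mir99a, Mir100 and Mir99b lie above 0, at 0.31, 0.67 and 0.74, and the intervals of Mir125a and Mirlet7e include 0.

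Ratios between paralogs of different clusters do not depend on scaling, and 9 pairs were compared between the libraries by Fisher's exact test, two-sided and adjusted over the 9. The test sets these 2 libraries against counting error alone and takes amplified reads as independent, so its p-values leave out any spread between libraries and say nothing of the mice. The split differed beyond counting error for 2 pairs. Mir99a had 1.99 counts for each count of Mir100 in replicate 2 and 2.55 in replicate 1 (adjusted p = 1.82e-59). For each count of Mir99b it had 11.2 in replicate 2 and 15.2 in replicate 1 (adjusted p = 6.99e-21). Mir100 had 5.66 counts for each of Mir99b in replicate 2 and 5.96 in replicate 1, which did not pass (adjusted p = 0.284). Its share of the pair's counts in replicate 2 was 85.0% (84.7 to 85.3%), and that in replicate 1 was 85.6% (84.9 to 86.4%).

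None of the 6 pairs of let-7 or miR-125 genes passed Fisher's exact test, with adjusted p from 0.102 to 1.0, and the unadjusted p was under 0.05 for Mirlet7a-2 with Mirlet7e (0.0341). Mir125b-2 gave 36.0% of the counts of both miR-125b genes in replicate 2 (32.3 to 39.8%) and 35.8% in replicate 1 (29.2 to 42.8%). Mirlet7c-1 gave 57.7% of its counts with Mirlet7a-2 in replicate 2 (54.1 to 61.2%) and 61.4% in replicate 1 (53.7 to 68.6%). The counts of these pairs are few, and a difference within those intervals was not detectable at this depth.

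**Figure D4:**
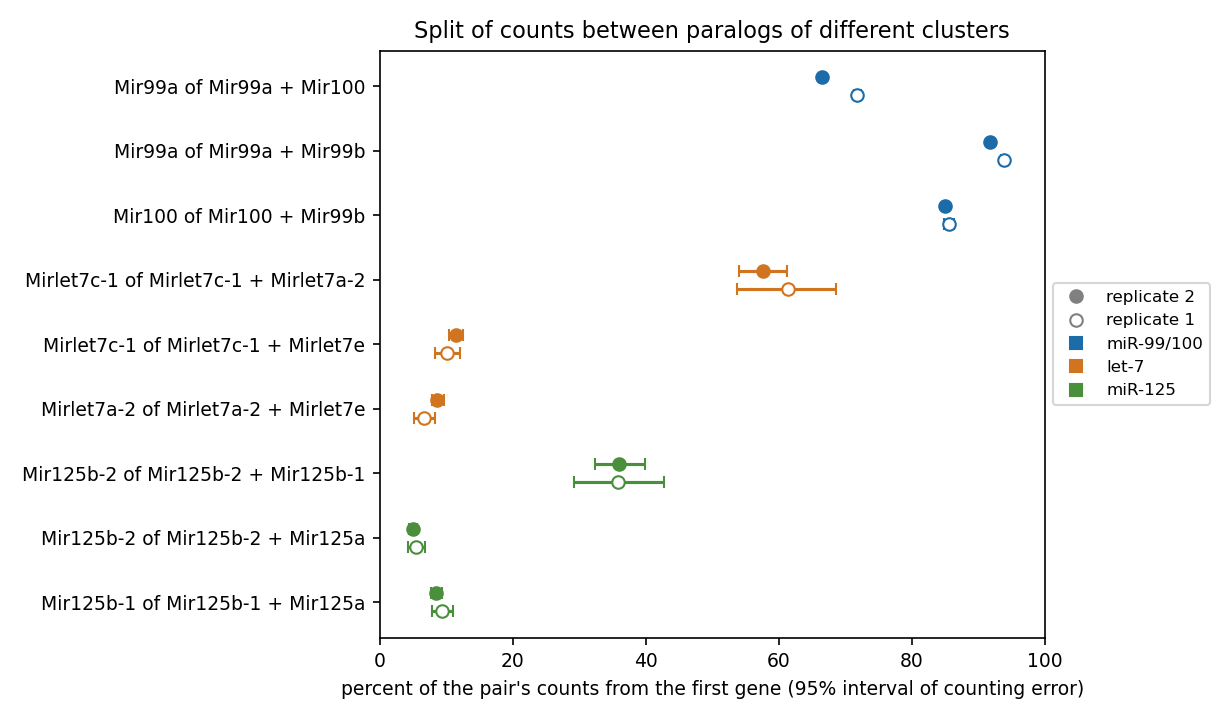
Percent of the counts of each pair of paralogs that came from the gene named first, in replicate 2 (filled) and replicate 1 (open), with 95% intervals of counting error. The pairs of Mir99a with Mir100 and with Mir99b differ between the libraries by more than counting error, at 66.5% and 71.8% for the first of these, and the other 7 pairs did not pass.

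Set against all genes with the same seeds, the clusters held very different parts of the assigned counts. Mirlet7c-1 and Mirlet7a-2, and their copies Mirlet7c-2 and Mirlet7a-1, lack reads that lie within the stretches they share. Stretches that the other let-7 genes may share among themselves were not examined. The let-7 shares below are therefore no measure of the microRNAs made. Of 14 let-7 seed genes, 3 lie in the clusters, and they gave 1.45% of the assigned let-7 counts in replicate 2 (95% interval 1.41 to 1.49%) and 1.46% in replicate 1 (1.38 to 1.55%). All genes of that seed together had 124944 CPM in replicate 2 and 121991 in replicate 1, led by Mirlet7g (45057 ± 940 CPM), Mirlet7i (37067 ± 325 CPM), Mirlet7d (19046 ± 303 CPM) and Mirlet7b (13328 ± 1033 CPM). Mirlet7c-2, the copy that shares let-7c-5p with Mirlet7c-1, had 447 CPM in replicate 2 and 460 CPM in replicate 1. Mir1961 and Mir7k, which carry the let-7 seed, had 0 counts in both libraries.

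Of 6 genes with the miR-125 seed, the 3 members gave 79.5% of the assigned counts in replicate 2 (78.4 to 80.4%) and 91.0% in replicate 1 (89.5 to 92.4%). The other gene counted was Mir351, a gene of the X chromosome, with 589 CPM in replicate 2 and 227 CPM in replicate 1, while Mir6394 and Mir6367 had 0 counts. The lower share of the members in replicate 2 thus went with a higher level of Mir351, as their own summed level was 2278 CPM in replicate 2 and 2301 CPM in replicate 1. Mir125b-1 and Mir125b-2 lack the reads of their common 5′ arm, which carries the seed, so these shares are uncertain.

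**Figure D5:**
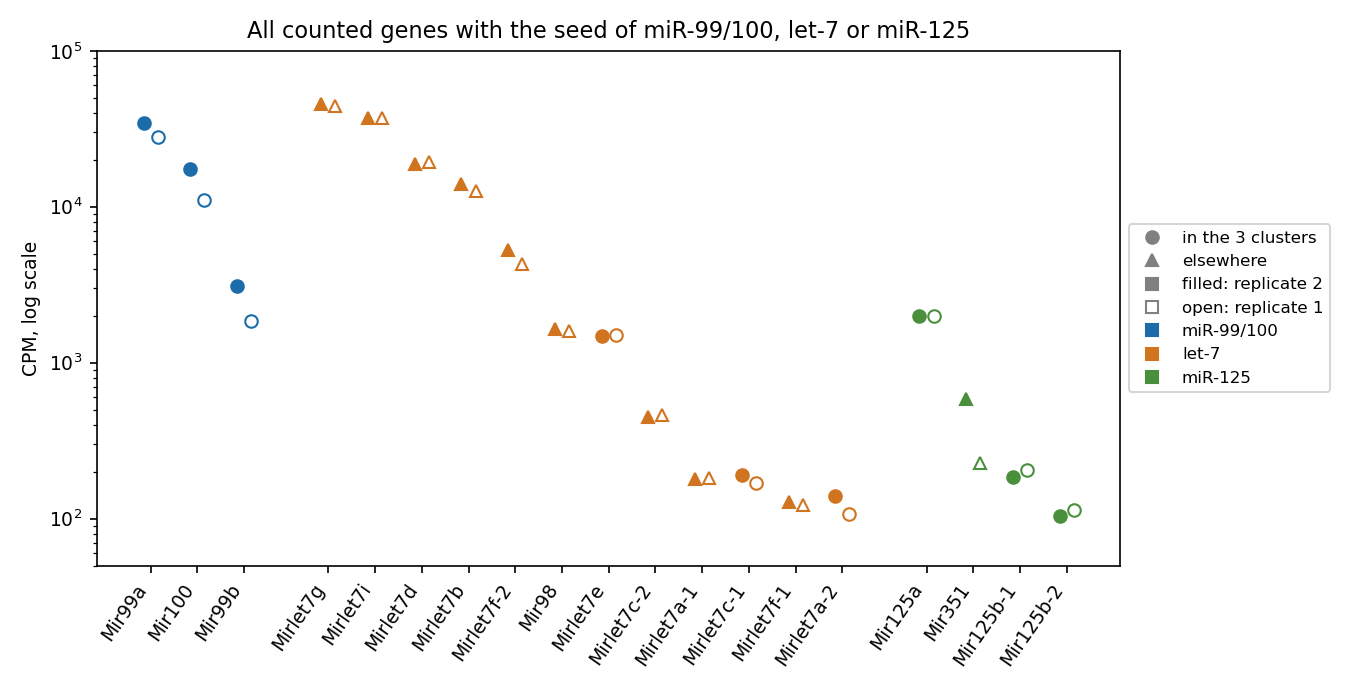
CPM (log axis) of every counted gene that carries the seed of miR-99/100, let-7 or miR-125, with circles for the 9 genes of the clusters, triangles for genes elsewhere, filled points for replicate 2 and open points for replicate 1. The let-7 genes of the clusters lie at or under 1509 CPM in both libraries, while Mirlet7g and Mirlet7i lie at or above 36837 CPM.

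Hairpin entries were found for 7 members, without Mir99b of chromosome 17 and Mir125b-2 of chromosome 16. Folding gave a minimum free energy of -0.34 kcal/mol per base for Mir100 to -0.49 for Mirlet7e. The median over 1005 mouse hairpins was -0.41. Mirlet7e and Mir125a, both of chromosome 17, had the highest GC content of the 7, 62.4% and 60.3%, and the other 5 had 45.8 to 53.2%. Mir100, the second most abundant member, had the weakest predicted fold per base of the 7.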

How the data were processed

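MicroRNA libraries of inserts under 30 nt were deposited as raw counts, 1 table a library, on mm10 with GENCODE M21, per the file descriptions deposited beside them. Aligner and counter: not given in the sources used here. The tables have 3 count columns without names, read from their values as unstranded, same-strand and opposite-strand, and the same-strand column was used. Rows that name no gene were left out of totals: unmapped reads were 6.93% of reads in replicate 2 and 5.97% in replicate 1, and reads with no feature 2.48% and 1.62%. Counts were divided by the total over gene rows (CPM). The assembly is that of C57BL/6J, and CAST alleles were not analysed here.

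Genes that summed to at least 10 counts were tested by an exact conditional binomial test, adjusted p under 0.05, with a prior count of 0.5 for log2 ratios. The test was tried on simulated counts that held counting error only. That trial cannot show how the test behaves with spread between libraries. The single group of 2 libraries allows no test of conditions. Intervals cover counting error only, as amplified reads that carry no molecular identifiers are not independent. Shared sequence was measured on the GENCODE M21 transcripts of 2202 genes. Hairpins were folded with ViennaRNA 2.7.2. Members, lists and the rule for named genes (members, genes of the same seed or sharing 20 bases, overlapping genes and neighbours in level) were chosen with earlier results of these data known. Software was Python 3.11.15, scipy 1.17.1, R 4.3.3, edgeR 4.0.16 and DESeq2 1.42.0. The alternatives tried were the unstranded column, scaling by TMM or DESeq2, a total without the most abundant gene, other filters and prior count, edgeR's exact test, and each library left out.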

Additional observations from a re-analysis of the deposited data

How the results depend on the processing

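Ignoring strand lowers the total and sets Mirlet7e to 0, which moved the summed levels to 45142 CPM on chromosome 16 and 20751 CPM on chromosome 9, and the share of the 9 genes to 7.22%. It also moved the share of Mir99b in its cluster to 54.5%, and put 100% of the counts of Mirlet7c-1 or Mirlet7a-2 with Mirlet7e on the gene named first. With the most abundant gene left out of the total, the sums were 37702 CPM on chromosome 16 and 7089 CPM on chromosome 17. Under edgeR's exact test at a common dispersion, 2 genes passed in place of 126, 1 higher in replicate 2 (Mir543) and 1 lower (Mir292), both named after their values were seen, and 0 of the members passed. At an unadjusted p under 0.05, 20 genes did. The calls of Mir99a, Mir100 and Mir99b were kept under the unstranded column, both other scalings, both other filters and the other prior count. With 1 library left out, the share of the 9 genes was 4.49 to 5.92% and that of Mir99b in its cluster 34.6 to 47.0%. No paired analysis was possible because the series has 1 group. Depth limits the 4 genes under 200 CPM, with 68 to 435 counts a library.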
